A study of Homo sapiens with 16 samples.

Results

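The 10 genes described here encode proteins of stress granules, the cytoplasmic bodies in which messenger RNA and RNA-binding proteins gather when translation is blocked. They were taken by name: ATXN2L, ATXN2, G3BP1, G3BP2, CAPRIN1, TIA1, TIAL1, USP10, UBAP2L and FMR1. ATXN2L was picked because it rose strongly when the transgene was induced in these same libraries, so its values in that comparison are a description with no test. The other 9 were taken for what their proteins do, though with earlier results of these data known. All 10 were found among the 60107 genes counted in each of 16 libraries.

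The study asked which transcripts depend on cap methylation in the cytoplasm. U2OS-TR is a human osteosarcoma line that expresses the tetracycline repressor. In U2OS-TR/ΔN-RNMT cells, a CMV promoter with tetracycline operators drives ΔN-RNMT, a FLAG-tagged and inactive piece of the cap methyltransferase RNMT that stays in the cytoplasm. This line was a single clone, chosen for its high expression of the transgene. There were 5 uninduced libraries (Control) and 5 libraries from cells given doxycycline (Induced). The parental U2OS-TR line, with the repressor but no transgene, gave 3 untreated libraries (No Dox) and 3 treated ones (With Dox). Treated cells received 1 μg/ml doxycycline 48 h after they were split and were collected 24 h later. The treatment recorded with the libraries names the drug for every one of them, whereas the study's methods and group names give it to the treated groups alone, which was followed here. Cytoplasmic RNA was prepared by spinning out nuclei and was sequenced as tags from the 3′ ends of polyadenylated transcripts. The 2 lines were sequenced at different facilities on different instruments, so an effect of the line cannot be told apart from that of the sequencing run.

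Stress granules assemble around G3BP1 and its paralog G3BP2, which bind RNA released from polysomes when the initiation factor eIF2 is phosphorylated on its alpha subunit or when cap-dependent initiation is otherwise stopped. CAPRIN1 binds G3BP and favors assembly, USP10 competes for G3BP and opposes it, and UBAP2L is a further G3BP partner needed for full assembly. TIA1 and TIAL1 bind U-rich RNA, silence translation and regulate splicing, ATXN2 and ATXN2L are paralogs that associate with poly(A)-binding protein, and FMR1 encodes FMRP, a translational repressor of the brain and other tissues.

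Messenger RNAs that begin with a terminal oligopyrimidine (TOP) tract are a class central to the study, so the annotated starts of the stress granule genes were compared with that tract. RefSeq promoters on GRCh38.p14 were available for 9 of the 10 genes, with 16 starts in all. A start was counted as TOP-like when its first transcribed base was C and each of the next 4 bases was C or T, read on the transcribed strand alone. None of the 16 starts met this rule, against 4.07% of all 35116 RefSeq starts searched, and 3 of the 16 began with C. The sequences below run from 10 bases before the start to 20 bases after it, with the first 5 transcribed bases in capitals. The start of EIF3K, a translation factor gene with a TOP-like start, is shown for comparison and was picked because it meets the rule. ATXN2L lies on chr16:28822989-28823018 (plus strand), the starts of TIA1 on chr2:70248774-70248803 and chr2:70248609-70248638 (minus strand), TIAL1 on chr10:119596945-119596974 (minus strand) and EIF3K on chr19:38619178-38619207 (plus strand).
ATXN2L: tccgctccccGGCGAcgcgcacgcgcgcca
TIA1, start 1: atacttgcgcCTGCGcagtctgaggcgtcc
TIA1, start 2: ctcccggctcGCCGCcatcttgtattgggg
TIAL1: gaagtcctctGCAGAagtgcttccctctct
EIF3K: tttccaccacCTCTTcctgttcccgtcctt

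Each library of the transgene line held between 12527183 and 23251834 gene counts, and each parental library held between 1473286 and 3214808. Levels are given as counts per mega-count (CPM, over all gene counts) after TMM scaling within each line, and since each transcript gives tags from its 3′ end only, they were not divided by length. The study reported that induction shifted many transcripts toward annotated 3′ ends. The part of 3′ end choice in the levels given here was not tested. RNMT, part of which the transgene carries, lay between 55.5 and 112 CPM in the uninduced libraries and between 265 and 457 in the induced ones, a log2 fold change of 2.22 (SE 0.23, adjusted P = 0.00806, quasi-likelihood test of edgeR, adjusted after Benjamini-Hochberg). Control replicate 5 had the highest RNMT of the uninduced libraries. In the transgene line 5183 of 13038 genes were called, and 8329 of 12956 without that library and Induced replicate 2, so counts below are also given without both where they move. Of 7 bone-lineage markers, VIM, SPARC, RUNX2 and COL1A1 were above 1 CPM in all 16 libraries, BGLAP had no count in any and COL1A2 had 2 counts in all. Of 3 markers of other cells, EPCAM (epithelial) was above 1 CPM in every library, and the sum of the 3 was between 5.50 and 12.9 CPM in uninduced and between 7.84 and 16.8 CPM in induced libraries. Their part in the results was not tested. In RNA from whole cultures, fewer cells that express a gene and less RNA per cell cannot be told apart.

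ATXN2L (ENSG00000168488, GRCh38 chr16:28822999-28837237, plus strand) was low in uninduced cells and high in most but not all induced libraries. Its level was 2.28, 2.10, 2.55, 2.08 and 3.33 CPM in Control replicates 1 to 5, from 45, 36, 46, 43 and 77 counts. In Induced replicates 1 to 5 it was 59.5, 3.71, 50.1, 16.3 and 56.1 CPM, from 800, 79, 792, 355 and 947 counts. Replicates 1, 3 and 5 stood far above every uninduced library, replicate 4 lay between, and replicate 2 was barely above the highest uninduced value. The groups did not overlap, by the margin between 3.33 and 3.71 CPM, which held for 7.3% of all genes. Against the uninduced mean the induced libraries were 24.1, 1.502, 20.3, 6.61 and 22.7 times as high. Mean levels were 2.47 ± 0.519 CPM in uninduced and 37.2 ± 25.4 CPM in induced libraries (SD, n = 5 each), a fitted log2 fold change of 3.90 (SE 0.62). Without Induced replicate 2 the induced mean was 45.5 ± 19.8 CPM (SD, n = 4). Only 8 of the 13038 genes fitted in this line had a larger fitted rise.

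RNMT was raised in Induced replicate 2 as in the other induced libraries. It was at 360 CPM there, against 278, 265, 457 and 367 CPM in Induced replicates 1, 3, 4 and 5. The order of ATXN2L over the induced libraries was thus not that of RNMT, since replicate 4, the library with the most RNMT, had less ATXN2L than 3 others. RNMT counts do not tell the transgene from the endogenous gene, and how much of each they hold was not tested. The induced libraries also differed in depth, with 12527183, 20781875, 14792238, 19355928 and 14765853 gene counts in replicates 1 to 5. The 3 libraries with the highest ATXN2L were the 3 with the fewest gene counts, and the part of depth in this order was not tested.

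In the parental line ATXN2L was sparse, and its mean was lower with the drug. Its level was 33.0, 5.94 and 1.46 CPM in No Dox replicates 1 to 3, from 55, 10 and 5 counts, and 0.697, 0.777 and 5.56 CPM in With Dox replicates 1 to 3, from 2, 2 and 7 counts. The highest value came from a single untreated library, and the 2 groups overlapped. Means were 13.5 ± 17.0 and 2.35 ± 2.79 CPM (SD, n = 3 each), and the untreated mean was 3.70 CPM without No Dox replicate 1. That library also had the highest share of mitochondrial counts of all 16, 9.38% against 1.76% and 5.78% in the other untreated ones, whose part was not tested. No Dox replicate 1 had the most tags assigned to no gene of all 16 as well, 1.497 per gene count, against 1.135 and 1.218 in the other untreated ones. The part of these tags was not tested either. ATXN2L fell below the base mean limit of 20 in this line and so was not tested there. Fitted without that limit, its log2 fold change was -2.61 (SE 0.77, adjusted P = 0.422, quasi-likelihood test of edgeR, adjusted after Benjamini-Hochberg). Across all 4 groups the level was highest in Induced, then No Dox, Control and With Dox, and only Control and Induced did not overlap, although levels of the 2 lines were scaled separately. The response of the transgene line exceeded that of the parental line by 6.48 on the log2 scale (SE 1.36), a value that rests on the libraries that picked the gene.

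None of the annotated neighbours of ATXN2L was called higher with it. A long noncoding RNA on the opposite strand, ENSG00000260570, overlaps the 3′ part of ATXN2L but is annotated to 28837200, short of the last bases of ATXN2L. It had 0 counts in all 10 libraries of the transgene line, including those with 947 and 800 ATXN2L counts. In the parental line it had 36, 8 and 3 counts in No Dox and 0, 2 and 3 in With Dox, next to ATXN2L counts of 55, 10, 5, 2, 2 and 7. Both were thus highest in the same parental library, and whether the counting used strand is not given in the sources used here, so the 2 genes cannot be told apart with certainty in that line. A second opposite-strand noncoding RNA, ENSG00000275807, overlaps the start of ATXN2L and had 266 counts over the uninduced and 184 over the induced libraries (log2 fold change -0.42, adjusted P = 0.289, edgeR, Benjamini-Hochberg). The nearest tested gene after ATXN2L was TUFM, which encodes the mitochondrial elongation factor Tu. It fell from 232 ± 37.1 to 142 ± 34.2 CPM (SD, n = 5 each), a log2 fold change of -0.70 (SE 0.19, adjusted P = 0.0194 by the same test). The nearest tested gene before it, ENSG00000260796, was at 1.97 ± 0.726 and 1.27 ± 0.494 CPM and did not pass (adjusted P = 0.165, same test).

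**Figure D1:**
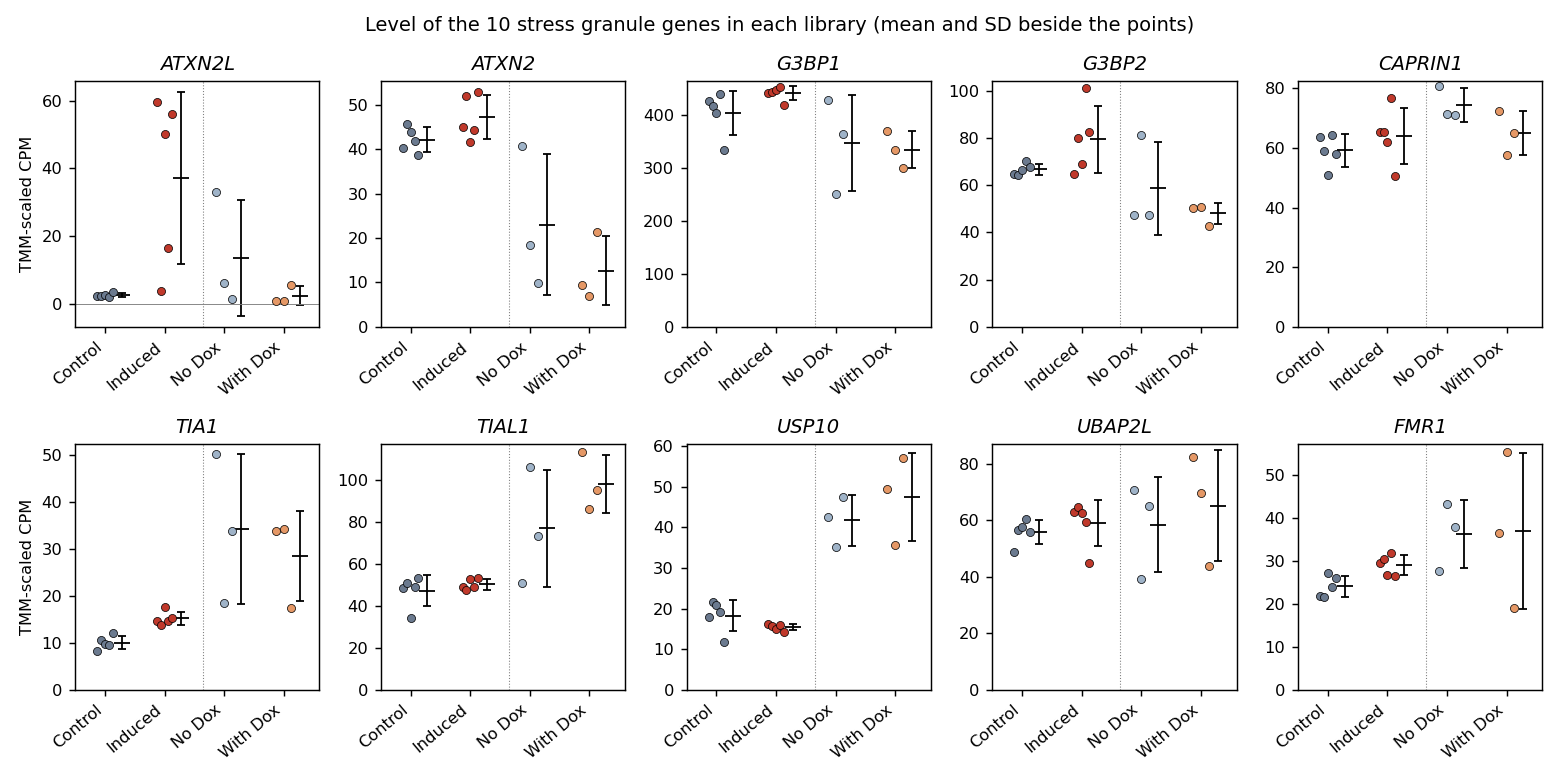
TMM-scaled CPM (y axis, linear) of each of the 10 genes in every library, with Control and Induced libraries of the transgene line left of the dotted line and No Dox and With Dox libraries of the parental line right of it, and the mean and SD beside the points. ATXN2L reaches 59.5 CPM in induced cells while Induced replicate 2 stays at 3.71, TIA1 separates the 2 transgene groups by a small margin, and the other genes overlap.

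The 5 genes whose pattern over the 10 transgene line libraries was nearest to that of ATXN2L were BCL2L2, C16orf87, C2CD5, DNA2 and RABGGTB. Nearness was the root mean square difference of z-scores of log2 CPM, between 0.158 and 0.175 for these 5, out of 13037 other genes ranked. BCL2L2 encodes an antiapoptotic BCL2 relative, DNA2 a nuclease and helicase of DNA replication, and RABGGTB a subunit of the enzyme that prenylates Rab proteins. RABGGTB lay between 2.55 and 3.81 CPM in uninduced libraries, at 2.68 in Induced replicate 2 and between 15.2 and 51.7 in the other induced libraries. DNA2 lay between 2.48 and 3.68 CPM, at 3.47, and between 13.5 and 21.6 CPM in the same order. BCL2L2 and C2CD5 were likewise within the uninduced range in Induced replicate 2, and C16orf87 was at 8.26 CPM there, between its uninduced libraries (4.90 to 6.80) and its other induced ones (16.9 to 24.0). Induced replicate 4 was the lowest of the remaining induced libraries for ATXN2L and all 5. These genes were selected for this likeness on these libraries and lie on chromosomes 14, 16, 12, 10 and 1. GC content was 60.7% for ATXN2L and between 35.6% and 51.9% for these 5. Of the other 9 members TIA1 came nearest (0.516, rank 1402), and ATXN2, the paralog of ATXN2L, was at 1.11 (rank 5549).

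**Figure D2:**
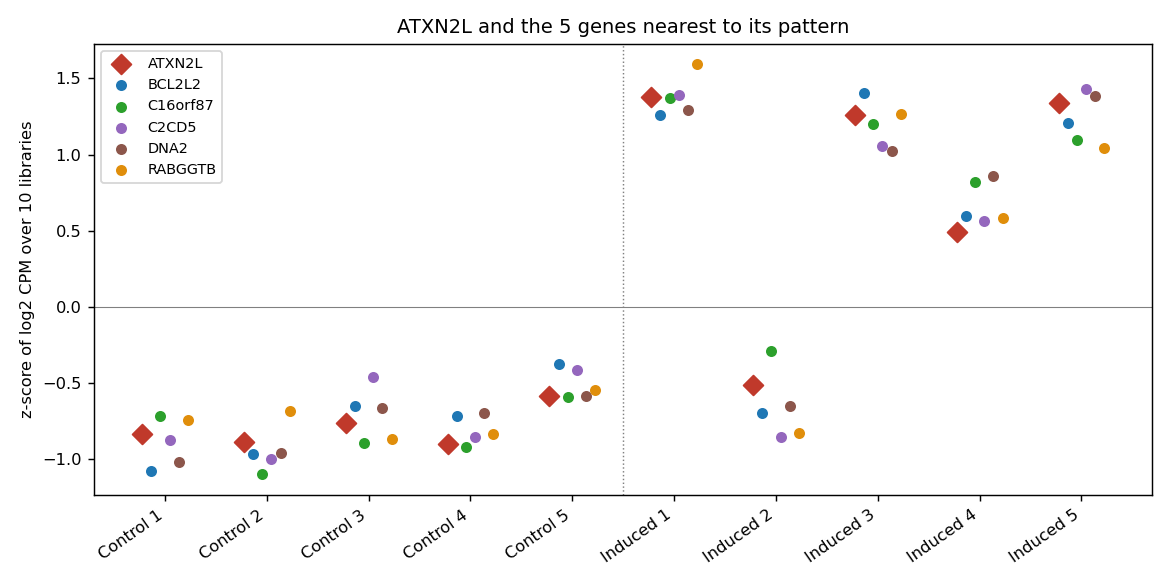
z-score of log2 CPM (y axis) in each of the 10 transgene line libraries (x axis) for ATXN2L (diamonds) and the 5 genes nearest to its pattern (circles). All 6 genes are below 0 in Induced replicate 2 and in the uninduced libraries, and above 0 in the other 4 induced libraries.

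TIA1 rose, and it was the only gene called of the other 9 in the transgene line (11.1%, against 39.8% of all 13038 genes tested). Its level was 8.21, 10.6, 9.82, 9.42 and 12.1 CPM in Control replicates 1 to 5 and 14.7, 13.8, 17.5, 14.5 and 15.3 CPM in Induced replicates 1 to 5. Every induced library was above every uninduced one, and Induced replicate 2, where ATXN2L stayed low, was the lowest of its group. The log2 fold change was 0.60 (SE 0.15, adjusted P = 0.0177, quasi-likelihood test of edgeR, adjusted after Benjamini-Hochberg), from 10.0 ± 1.43 to 15.2 ± 1.42 CPM (SD, n = 5 each). The call held with each library left out in turn, with adjusted P values up to 0.0495 (same test). It was lost with offsets for GC content (log2 fold change 0.21, adjusted P = 0.248) and with 1 surrogate variable (0.48, adjusted P = 0.114, same test). GC content is 36.5% for TIA1, and the mean GC content of counted genes was between 49.4% and 50.6% in uninduced and between 48.5% and 49.5% in induced libraries. C2orf42, which overlaps TIA1 on the same strand, fell (log2 fold change -0.71, adjusted P = 0.0301, edgeR, Benjamini-Hochberg) from 315 to 179 counts over the libraries of each group.

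TIAL1, the paralog of TIA1, was at 48.5, 51.0, 34.4, 49.1 and 53.5 CPM in Control replicates 1 to 5 and at 49.1, 47.5, 53.0, 49.0 and 53.3 CPM in Induced replicates 1 to 5. The groups overlapped over nearly their whole range, apart from the low value of Control replicate 3. Its log2 fold change was 0.09 (SE 0.15, adjusted P = 0.625, edgeR, Benjamini-Hochberg), with a 95% interval from -0.23 to 0.41. The log2 ratio of TIA1 to TIAL1 within a library, which does not depend on how libraries are scaled, was -2.56, -2.27, -1.81, -2.38 and -2.15 in Control and -1.73, -1.78, -1.60, -1.75 and -1.80 in Induced replicates 1 to 5. All induced ratios were higher than all uninduced ones, narrowly so for Control replicate 3, the library with low TIAL1. The mean ratio rose by 0.50 (exact permutation test, two-sided P = 0.00794, the smallest that 5 against 5 libraries allow, and 0.0397 after Benjamini-Hochberg adjustment over the 5 ratio tests made).

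Parental TIA1 was at 50.4, 18.4 and 33.9 CPM in No Dox and 33.8, 34.2 and 17.5 CPM in With Dox replicates 1 to 3, and TIAL1 was at 51.0, 106 and 73.6 CPM in No Dox and 114, 86.3 and 95.3 CPM in With Dox. The groups overlapped for both genes. The TIA1 to TIAL1 ratio differed by -0.62 between treated and untreated libraries, in the opposite direction to the transgene line (exact permutation P = 0.5). With 3 libraries against 3 the exact test cannot go below P = 0.1.

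**Figure D3:**
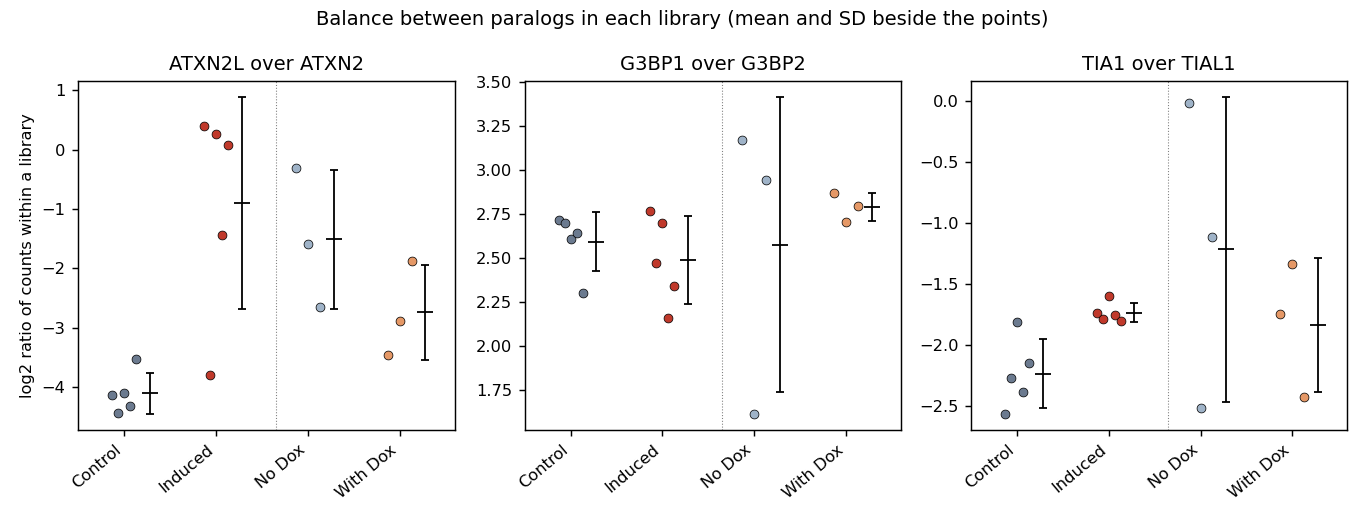
log2 ratio of the counts of a gene to those of its paralog within each library (y axis) for ATXN2L over ATXN2, G3BP1 over G3BP2 and TIA1 over TIAL1, by group, with mean and SD beside the points. The ATXN2L ratio runs from -3.80 to 0.40 in induced libraries, the G3BP ratio overlaps between groups, and the TIA1 ratio is higher in every induced library than in any uninduced one.

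None of the G3BP core and its partners passed the test in the transgene line. G3BP1 was at 427, 418, 404, 440 and 335 CPM in Control replicates 1 to 5 and at 442, 444, 448, 452 and 419 CPM in Induced replicates 1 to 5, so that Control replicate 5 alone was clearly lower than the rest. Its log2 fold change was 0.13 (SE 0.13, adjusted P = 0.436, edgeR, Benjamini-Hochberg). G3BP2 was between 64.3 and 70.3 CPM in uninduced and between 64.8 and 101 CPM in induced libraries (log2 fold change 0.25, SE 0.15, adjusted P = 0.169, same test). The spread was wider after induction, with Induced replicate 4 highest, and the ranges overlapped. The G3BP1 to G3BP2 log2 ratio was 2.59 ± 0.170 in uninduced and 2.49 ± 0.251 in induced libraries (SD, n = 5 each; exact permutation P = 0.452). Genes on the opposite strand overlap both: ATOX1, a copper chaperone gene, overlaps the start of G3BP1 and fell (log2 fold change -1.09, adjusted P = 0.0175), and USO1, a vesicle tethering factor gene, overlaps the start of G3BP2 and rose (0.83, adjusted P = 0.0175, edgeR, Benjamini-Hochberg). G3BP1 also has 1 pseudogene by symbol, and tags that aligned to several places were listed apart from the gene counts.

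CAPRIN1, which favors G3BP condensation, was between 50.8 and 64.4 CPM in uninduced and between 50.6 and 76.8 CPM in induced libraries (log2 fold change 0.11, SE 0.14, adjusted P = 0.532, edgeR, Benjamini-Hochberg). UBAP2L was between 48.7 and 60.5 CPM and between 44.7 and 64.8 CPM (0.08, SE 0.14, adjusted P = 0.669, same test). USP10, the ubiquitin peptidase that competes for G3BP, was the only member with a negative value. It was at 17.8, 21.6, 20.8, 19.1 and 11.8 CPM in Control and at 16.1, 15.8, 15.1, 15.8 and 14.2 CPM in Induced replicates 1 to 5. Every induced library was below Control replicates 1 to 4 and above Control replicate 5. The log2 fold change was -0.24 (SE 0.17, adjusted P = 0.253, edgeR, Benjamini-Hochberg), and without Control replicate 5 it was -0.38 and passed (adjusted P = 0.0301, same test). Without that library 7604 of all 12990 genes passed, against 5183 of 13038 with it.

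ATXN2, the better known paralog of ATXN2L, whose polyglutamine tract expands in a form of spinocerebellar ataxia, was at 40.2, 45.7, 43.97, 41.9 and 38.8 CPM in Control and 45.1, 52.0, 41.6, 44.3 and 53.0 CPM in Induced replicates 1 to 5. Induced replicate 2 was among the 2 highest, unlike for ATXN2L, and the groups overlapped (log2 fold change 0.16, SE 0.13, adjusted P = 0.310, edgeR, Benjamini-Hochberg). SH2B3, on the opposite strand, overlaps the 3′ end of ATXN2. It had 695 counts over the uninduced and 962 over the induced libraries (log2 fold change 0.65, adjusted P = 0.0550, same test). Its part in the ATXN2 levels was not tested. The log2 ratio of ATXN2L to ATXN2 was between -4.43 and -3.53 in uninduced libraries and 0.40, -3.80, 0.27, -1.44 and 0.08 in Induced replicates 1 to 5. The 2 paralogs thus had similar counts in 3 induced libraries, whereas ATXN2 dominated in Induced replicate 2 and in all uninduced ones. Parental ATXN2 was at 40.8, 18.4 and 9.93 CPM in No Dox and 9.40, 6.995 and 21.5 CPM in With Dox replicates 1 to 3. The ratio there was -0.30, -1.58 and -2.65 in No Dox and -3.46, -2.89 and -1.87 in With Dox (exact permutation P = 0.2), and both paralogs were highest in No Dox replicate 1.

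FMR1 was between 21.5 and 27.1 CPM in uninduced and between 26.6 and 32.0 CPM in induced libraries, so that the ranges met only at their ends. The log2 fold change of 0.27 (SE 0.13) did not pass (adjusted P = 0.117, edgeR, Benjamini-Hochberg), and its 95% interval ran from -0.02 to 0.56.

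Of all genes tested in the transgene line 20.0% were called higher and 19.8% lower, beside 1 higher and 0 lower among the 9 genes other than ATXN2L. TIA1 was also the only one of the 9 whose groups did not overlap, against 7.3% of all genes (3.08% higher and 4.22% lower). The 9 log2 fold changes were between -0.24 and 0.60 with a median of 0.13, against a median of 0.04 over all genes, and 8 of the 9 were above 0. The intervals of the 8 genes not called lay between -0.62 and 0.57. With libraries scaled by total counts alone the median of all genes moved to 0.28, and 5 of the 9 (ATXN2, FMR1, G3BP1, G3BP2 and TIA1) were called higher, as were 4019 of all 13038 genes, with 1404 called lower. With offsets for GC content 0 of the 9 and 3291 of all 13038 genes were called, and the values of G3BP1 (-0.23), G3BP2 (-0.04), CAPRIN1 (-0.15), TIAL1 (-0.22) and FMR1 (-0.05) turned negative. Most of these genes are AT-rich: GC content over exons was between 36.5% and 41.5% for TIA1, G3BP1, FMR1, TIAL1, G3BP2 and CAPRIN1, 46.6% for USP10, 50.0% for ATXN2 and 51.5% for UBAP2L.

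In the parental line none of the 9 genes tested was called, as for all 9124 genes tested (0.0%). None of the 9 had an unadjusted P below 0.05 by edgeR or by DESeq2, against 267 and 357 of all genes. Log2 fold changes of the 9 were between -0.89 (ATXN2) and 0.35 (TIAL1), with 4 above 0 and 5 below. All 9 adjusted P values were 0.997 (edgeR, Benjamini-Hochberg). None of the 10 genes had groups that did not overlap, against 9.52% of all genes (4.87% higher and 4.66% lower). The median standard error was 0.40 in this line and 0.14 in the transgene line, so a change of the size seen for TIA1 was not detectable at this depth and number of libraries.

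Whether the response to doxycycline differed between lines was tested for the 9 genes in a fit of all 16 libraries. None was called, against 2.98% of all 12265 genes (0.775% higher and 2.2% lower). None of the 9 had an unadjusted P below 0.05 by edgeR or DESeq2, against 3197 and 3577 of all genes. Differences of the 9 were between -0.66 (USP10) and 0.84 (ATXN2), and the lowest adjusted P was 0.239 (USP10, edgeR, Benjamini-Hochberg). For TIA1 the difference was 0.63, with a 95% interval from -0.20 to 1.46, so its response was not shown to differ from the log2 fold change of -0.25 in parental cells.

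**Figure D4:**
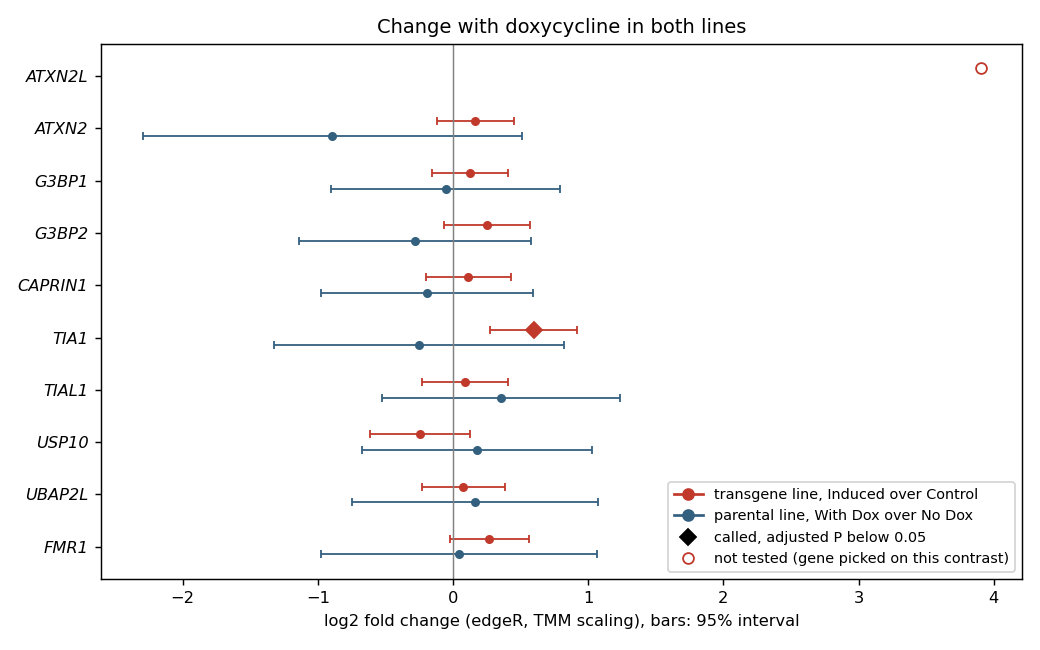
log2 fold change with doxycycline (x axis) and its 95% interval for the genes tested in the transgene line (red) and the parental line (blue), with a diamond where the adjusted P was below 0.05 and an open circle for ATXN2L, which was picked on that comparison. ATXN2L is drawn without an interval. The interval of TIA1 in the transgene line lies above 0, and the other intervals drawn include 0.

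The wider set listed 46 stress granule proteins other than the 10 members: RNA-binding proteins, translation factors and others. Of their genes 44 were tested in the transgene line. Of these, 10 rose and 4 fell (31.8% called, against 39.8% of all genes), with a median log2 fold change of 0.00. The largest rises were in EWSR1, an RNA-binding protein of the FET family (1.85, SE 0.54, adjusted P = 0.0236), EIF4G1, the scaffold of the cap-binding complex (1.47, SE 0.34, adjusted P = 0.0175), and HNRNPA1, a splicing regulator (1.02, SE 0.26, adjusted P = 0.0182, all edgeR, Benjamini-Hochberg). EWSR1 was between 21.4 and 103 CPM in uninduced libraries, at 32.5 in Induced replicate 2 and between 135 and 206 in the other induced libraries. Induced replicate 2 was thus within the uninduced range of EWSR1. The largest falls were in PRMT1, an arginine methyltransferase (-1.13, SE 0.25, adjusted P = 0.0175), HDAC6, a cytoplasmic deacetylase (-0.98, SE 0.26, adjusted P = 0.0195), and EIF3B, a subunit of the initiation factor eIF3 (-0.92, SE 0.27, adjusted P = 0.0234, same test).

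P-bodies are the cytoplasmic bodies of mRNA decapping and silencing that dock with stress granules. Of 16 P-body genes tested, 6 rose and 2 fell (50.0% called, against 39.8% of all genes), with a median log2 fold change of 0.25. LSM14A, a translational repressor (0.98, SE 0.25, adjusted P = 0.0180), and TNRC6C, a partner of Argonaute in silencing (0.98, SE 0.22, adjusted P = 0.0175), rose most (edgeR, Benjamini-Hochberg). EDC3, an activator of decapping (-0.75, SE 0.21, adjusted P = 0.0226), and AGO1, an Argonaute protein (-0.50, SE 0.16, adjusted P = 0.0333), fell most (edgeR, Benjamini-Hochberg). EDC3 was the only one of these 4 whose groups did not overlap, against 7.3% of all genes. Its margin was only that between 8.175 CPM (highest induced) and 8.182 CPM (lowest uninduced).

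Stress granule assembly is set off by kinases that phosphorylate eIF2 alpha and reversed by protein phosphatase 1. Of the 10 genes of this list, all of them tested, 3 rose and 1 fell (40% called, against 39.8% of all genes), with a median of 0.42. PPP1R15B, which directs the phosphatase to eIF2 alpha, rose most (1.34, SE 0.36, adjusted P = 0.01997), followed by the catalytic subunit PPP1CB (1.11, SE 0.28, adjusted P = 0.0177). The sister subunit PPP1CA fell (-0.68, SE 0.22, adjusted P = 0.0331, edgeR, Benjamini-Hochberg). PPP1R15B was at 9.95 CPM in Induced replicate 2, within the uninduced range of 7.70 to 20.6 CPM, and between 30.7 and 40.3 CPM in the other induced libraries. These are RNA levels. On blots of induced cells the study saw no rise in phosphorylated eIF2 alpha, nor a change in translation by puromycin labeling.

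The 13 genes named from these lists kept their direction under DESeq2's size factors, total counts alone, offsets for GC content and 1 surrogate variable. With GC offsets 10 of the 13 were called, without EIF3B, HDAC6 and PPP1CA. With total counts alone 10 were called, without AGO1, EDC3 and PPP1CA, and with 1 surrogate variable 0 were called. Of all 13038 genes, 3291 were called with GC offsets and 1 with 1 surrogate variable. With total counts alone 5423 of them were called, 4019 higher and 1404 lower. Leaving out single libraries moved the counts of the lists and of all genes. The 5183 calls over all genes became 2549, 2169, 3757, 3293 and 7604 without Control replicates 1 to 5 and 1869, 6353, 2305, 1890 and 3732 without Induced replicates 1 to 5. The 14 calls among stress granule proteins became 8, 5 and 9 without Control replicates 1, 2 and 4, and 4, 6 and 5 without Induced replicates 1, 3 and 4. The 8 P-body calls became 4, 3, 5 and 4 without Control replicates 1 to 4 and 3, 3, 3 and 5 without Induced replicates 1, 3, 4 and 5. The 4 calls of the eIF2 alpha list became 2, 1 and 2 without Control replicates 1, 2 and 4, 8 without Control replicate 5, and 1, 1 and 2 without Induced replicates 1, 3 and 4. Without both Control replicate 5 and Induced replicate 2 the 3 counts were 23, 8 and 8, with 8329 calls over all genes. In the parental line 0 of the 41, 16 and 10 genes tested in the 3 lists were called by edgeR or by DESeq2, with 4, 1 and 0 at an unadjusted P below 0.05 by either tool. Over all 9124 genes, 267 had such a P by edgeR and 357 by DESeq2.

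**Figure D5:**
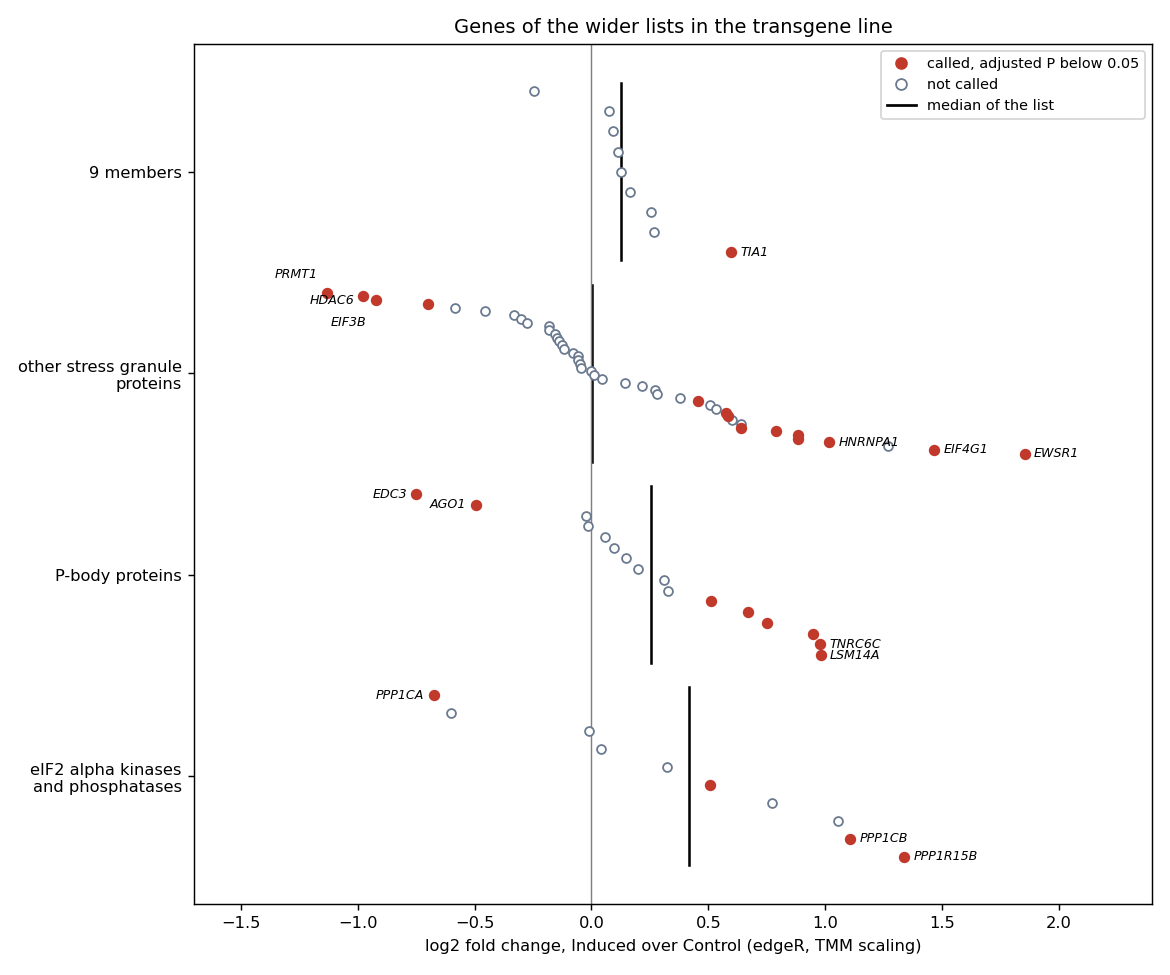
log2 fold change of each gene (x axis) in the transgene line for the 9 members other than ATXN2L and for 3 wider lists, filled where the adjusted P was below 0.05, with a black line at the median of each list. TIA1 is the only called member, while the lists hold calls on both sides of 0, from PRMT1 at -1.13 to EWSR1 at 1.85.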

How the data were processed

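The authors made 3′ tag libraries from cytoplasmic RNA with the QuantSeq REV kit and deposited unnormalized counts per Ensembl gene for GRCh38, one table per library. They name the Lexogen QuantSeq REV pipeline for human data. The aligner inside it, whether strand was used and how duplicates were handled are not given in the sources used here. Spike-in and summary entries were left out of library sizes. Gene names and positions came from GENCODE release 44, which named 56104 of the 60107 genes.

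Genes with a base mean (mean count after DESeq2 scaling) above 20 were tested in each comparison by the quasi-likelihood test of edgeR 4.0.16 in R 4.3.3, with TMM scaling, P values adjusted after Benjamini-Hochberg over all genes tested and calls at an adjusted P below 0.05. Paralog ratios used log2 of counts plus 0.5 and exact two-sided permutation tests (scipy 1.17.1). Scripts were tested on simulated data. DESeq2 1.42.0, sva 3.50.0 and the other settings given below were alternatives. The study calls the transgene line libraries biological replicates and gives the parental ones as separate cultures. The closest pair in a group differed by more than sampling noise (chi-square per degree of freedom 4.76).

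The members and gene lists were chosen with earlier results of these data known. All members were named, with RNMT as a check of the labels, the called genes with the largest rise and fall of each list (3 each for stress granule proteins, 2 each for the others), the 5 genes nearest to ATXN2L in pattern, and its neighbours. PRRC2B of the stress granule list was not matched to an identifier.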

Additional observations from a re-analysis of the deposited data

Results flagged for a closer look

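Among 28 groups of 5 libraries examined for a single library far from the rest, 3 were picked out, and chance picks out about 1 in 20. TIAL1 was at 34.4 CPM in Control replicate 3, against 48.5 to 53.5 CPM in the other uninduced libraries. UBAP2L was at 44.7 CPM in Induced replicate 5, against 59.5 to 64.8 CPM in the other induced libraries. The log2 ratio of G3BP1 to G3BP2 was 2.302 in Control replicate 5, against 2.61 to 2.72 in the other uninduced libraries.

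The response of RNMT to doxycycline differed between the lines by 2.43 on the log2 scale (SE 0.39, adjusted P = 0.0258, quasi-likelihood test of edgeR, adjusted after Benjamini-Hochberg). RNMT rose in the line with the transgene and had a log2 fold change of -0.42 (SE 0.39) in the line without it.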

How the results depend on the processing

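TIA1 stayed called under DESeq2, DESeq2's size factors, total counts alone, both other filters, the replicate block and each library left out, and lost its call with GC offsets, GC offsets with the block, and 1 surrogate variable. Of the 9 genes other than ATXN2L, 5 were called with total counts alone, 0 with GC offsets, 0 with GC offsets and the replicate block, 0 with 1 surrogate variable, 2 without Control replicate 5 and 2 without Control replicate 5 and Induced replicate 2 (an alternative chosen after seeing the data), and between 1 and 2 over all single libraries left out. With 1 surrogate variable 1 of all 13038 genes was called, and without Control replicate 5 the calls were 7604 of all 12990 genes. Depth was low in the parental line, where ATXN2L had as few as 2 counts in a library. The parental libraries also had more tags assigned to no gene, between 1.110 and 1.497 per gene count, against 0.0744 to 0.106 in the transgene line. The parts of depth and of these tags in the parental results were not tested. The causes of the changes in calls were not tested.

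The calls of the lists moved as well, as did those of all genes. With 1 surrogate variable 0 genes of the stress granule, P-body and eIF2 alpha lists were called, beside 1 of all 13038 genes. P-body calls were 5 with GC offsets and 5 with GC offsets and the block, beside 3291 and 3946 of all 13038 genes. The eIF2 alpha list had 7 calls with DESeq2, beside 5956 of all 13038 genes. Without Control replicate 5 and Induced replicate 2 the stress granule list had 23 calls and the eIF2 alpha list 8, beside 8329 of all 12956 genes. Over single libraries left out the counts were 4 to 20, 3 to 8 and 1 to 8, beside 1869 to 7604 over all genes.

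In the transgene line the log2 fold change turned sign with GC offsets, and with GC offsets and the replicate block, for G3BP1 (-0.23, -0.22), G3BP2 (-0.038, -0.060), CAPRIN1 (-0.15, -0.15), TIAL1 (-0.22, -0.21) and FMR1 (-0.050, -0.053). It turned with 1 surrogate variable for TIAL1 (-0.11) and USP10 (0.051), and with total counts alone for USP10 (0.0024). TIAL1 was -0.021 without Control replicate 3, ranged up to 0.12 over single libraries left out and was 0.15 without Control replicate 5 and Induced replicate 2. None of these values passed the test before or after. In the parental line FMR1 turned to -0.045 with total counts alone, -0.055 with the replicate block, -0.037 with GC offsets and -0.077 with GC offsets and the block, and G3BP1 to 0.015 with no filter. Over single parental libraries left out the values ranged from -0.17 to 0.20 for G3BP1, -0.35 to 0.10 for G3BP2, -0.48 to 0.19 for TIA1, -0.018 to 0.40 for USP10, -0.038 to 0.39 for UBAP2L and -0.33 to 0.31 for FMR1, and the log2 ratio of G3BP1 to G3BP2 from -0.27 to 0.51.

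Replicate numbers were not shown to pair the libraries, though so few pairs cannot exclude it. Deviations of same-numbered libraries correlated above 0.1 in 2 of 5 pairs of the transgene line and 1 of 3 of the parental line, and 3 of 10 and 2 of 6 libraries correlated best with their own number. With the replicate block 5190 genes were called in place of 5183. Taken over the 5 numbered pairs, the TIA1 to TIAL1 ratio kept its difference of 0.50 with an exact P of 0.0625, the smallest that 5 pairs allow. The block changed no other call of a member.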
